A study of Mus musculus with 48 samples.

Results

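The comparison described here sets astrocytes of the mouse olfactory bulb labelled Gq-CNO against astrocytes of the same region labelled Gq-Saline, across all genes. Its members are the 6 libraries, 3 for each label, that the labels give as GFP astrocytes of the olfactory bulb under these treatments, out of 48 libraries in the series. All 6 came from mice of the genotype Aldh1l1-GFP, in which green fluorescent protein (GFP) is driven by the promoter of Aldh1l1, a folate enzyme gene of astrocytes, so both groups carry the reporter and both carry the Gq label. Gq is the name of a G protein that activates phospholipase C, and Gq in such designs stands for a designer receptor coupled to it, whose ligand is clozapine-N-oxide (CNO). The Gq-CNO mice received the ligand and the Gq-Saline mice the vehicle, as far as the labels tell, with no dose, time, age or sex stated. The cells that carry the receptor are not named in the labels, which also list an mCh sort called neurons under the same treatments. Both GFP groups held sorted cells, and the libraries were made from 10 ng of total RNA each. Nothing in the labels says that the libraries came from separate animals, so every p-value below measures the spread between these libraries.

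Astrocytes of the olfactory bulb wrap the synapses at which odour input is relayed, take up glutamate and gamma-aminobutyric acid (GABA), and buffer potassium. They sense transmitters from neighbouring cells through receptors that often couple to Gq and raise calcium. Growth factor receptors with tyrosine kinase activity signal in these cells through Ras and ERK, and Sprouty proteins are made in response to that signal and dampen it. Slc22a3, which the study's title names, encodes a transporter that moves serotonin, dopamine and other organic cations across the cell membrane.

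The Gq-Saline libraries held 11090174, 11033848 and 3085269 reads assigned to genes, and the Gq-CNO libraries held 14954619, 12799825 and 4233206. The third library of each group was therefore the shallowest. In a principal component analysis these 2 libraries lay at opposite ends of the first component, which held 28.3% of the variance, and the groups overlapped on each of the first 3 components. Pearson's r between log2 values of any pair of the 6 libraries was between 0.814 and 0.880. The closest pair was the first and second Gq-Saline libraries. Xist, the RNA of the inactive X chromosome, had 977 reads in the first Gq-Saline library and at most 1 read in the other five, and the Y-linked Ddx3y was at 0 only in that library. The ribosomal RNA entry Rn45s took between 15.1% and 20.0% of reads.

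Of 24421 gene entries, 11810 had a normalised read count of at least 10 in at least 3 of the 6 libraries and were tested with limma on the log2(value + 1) scale. A gene was called where its Benjamini-Hochberg adjusted p was under 0.05. The receptor feedback gene Spry2 was called, and it rose in the Gq-CNO astrocytes. No other gene was called, so 1 of 11810 genes, or 0.00847%, passed in either direction. At an unadjusted p under 0.05, 564 genes differed (4.78%), of which 275 were higher (2.33%) and 289 lower (2.45%) in Gq-CNO. The 3 values of Gq-CNO lay all above or all below those of Gq-Saline in 1167 genes (9.88%), 577 above (4.89%) and 590 below (5.0%). Single genes said below not to overlap are to be read against these shares. The median log2 difference over all genes tested was 0.01, and 5975 genes had a positive difference.

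The width of the interval around a difference depended on the level of the gene. For the 152 genes with a mean normalised read count over 5000, the median half-width of the 95% interval was a 1.21-fold change. It was 1.59-fold for the 3680 genes between 200 and 1000, and 5.18-fold for the 2717 genes under 50. The plot of level against difference shows this spread. These intervals are for 1 gene at a time and are not adjusted for the 11810 genes tested. A difference as large as the half-width therefore need not be called.

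**Figure D1:**
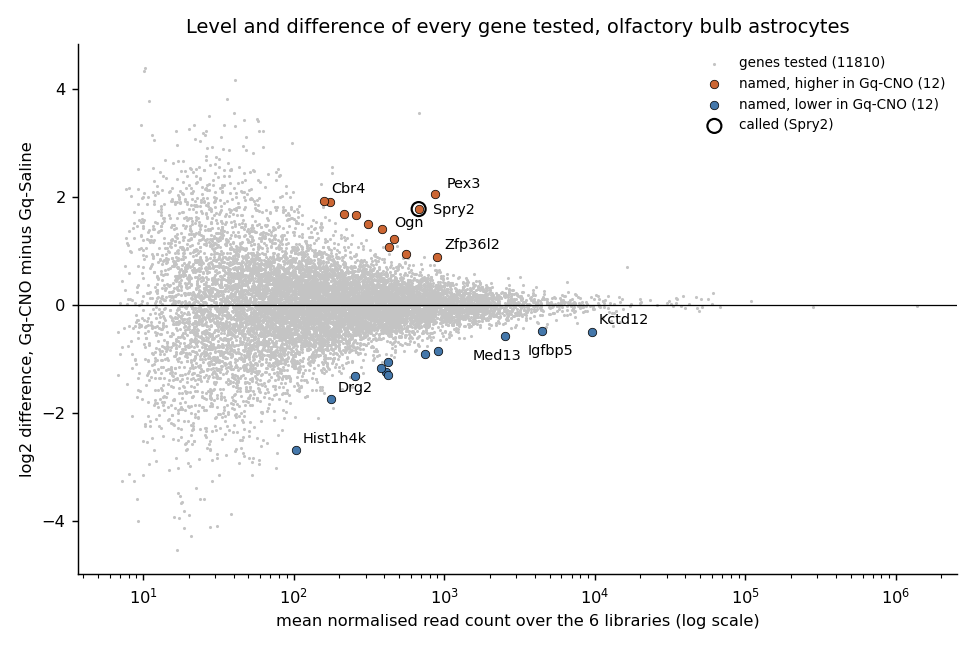
Each point is 1 of the 11810 genes tested; the x axis is the mean normalised read count over the 6 libraries on a log scale and the y axis is the log2 difference between Gq-CNO and Gq-Saline. The differences narrow as the level rises, the named genes with the smallest p values lie along both edges of the cloud, and Spry2, the ringed point at 1.78, is the gene called.

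Spry2, Sprouty 2, encodes an inhibitor of Ras and ERK signalling downstream of growth factor receptors. The gene lies on the minus strand at chr14:105891947-105896819 (mm10, GENCODE release M21). Its normalised read counts were 281, 311 and 272 in the Gq-Saline libraries and 895, 667 and 1627 in the Gq-CNO libraries. All 3 Gq-CNO values stood above all Gq-Saline values, and the third Gq-CNO library was the highest. The group means were 288 ± 20.4 (SD, n = 3) with saline and 1063 ± 502 (SD, n = 3) with CNO, a ratio of 3.69. The log2 difference was 1.78 with a standard error of 0.302 and a 95% interval from 1.16 to 2.40 (limma, adjusted p = 0.0354). As RPKM, reads per kilobase of exon scaled to library size, the median level of Spry2 over the 6 libraries was 28.9, rank 1008. Ranks per length cover tested genes with an exon length, without gene models such as those with Gm or Rik names.

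The call for Spry2 sat close to the threshold in the main test and depended on the setting. Without a trend limma gave an adjusted p of 0.865, and without the low-value filter 0.281. The direction was the same in all 20 alternative settings, with log2 differences from 1.38 to 2.07, but edgeR's quasi-likelihood test gave an adjusted p of 0.057 with a log2 difference of 1.87, whereas DESeq2 gave 2.23e-05. Leaving out the first or the third Gq-Saline library, or the first or the third Gq-CNO library, also ended the limma call, with adjusted p values of 0.388, 0.198, 0.387 and 0.745, and without the third Gq-CNO library the log2 difference was 1.42.

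The promoter of Spry2 is shown because this is the gene that rose. The sequence is that of RefSeq (GRCm38.p6), 250 bases before to 50 after the start of transcription, minus strand, at chr14:105896770-105897069.
Spry2 promoter: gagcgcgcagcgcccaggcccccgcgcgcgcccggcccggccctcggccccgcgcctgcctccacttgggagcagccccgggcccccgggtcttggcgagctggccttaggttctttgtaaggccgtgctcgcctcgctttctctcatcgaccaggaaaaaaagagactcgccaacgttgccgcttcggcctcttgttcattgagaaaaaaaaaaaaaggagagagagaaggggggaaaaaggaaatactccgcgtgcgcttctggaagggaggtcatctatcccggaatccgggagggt
This window has a G and C content of 62.7% and 28 CpG pairs, against medians of 52.7% and 7 over 27025 mouse promoters of the same length. Searched on both strands, it held no AP-1 letters (TGANTCA, found in 7.93% of those promoters), no cAMP response element (TGACGTCA, in 1.88%), no SOX core (ACAAT, in 31.6%) and no serum response element (by its name alone, in 1.57%). The absence of these letters concerns this window only.

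Other genes of receptor feedback gave no second call. Of 18 genes in that list, 14 were tested, Spry2 was called, and 7 differences were positive and 7 negative with a median of -0.00 on the log2 scale. Spry4, another Sprouty gene, had 214, 205 and 211 in Gq-Saline and 231, 166 and 248 in Gq-CNO, which overlap. Spry1 was too low for the test, with 15 reads in all with saline and 29 with CNO, and Spry3 was at 0 in all 6 libraries. Phlda1, a gene that growth factors and ERK switch on, had a log2 difference of 1.82 ± 0.96 (SE), with 97.1, 20.8 and 5.55 in Gq-Saline against 164, 158 and 22.4 in Gq-CNO. The third CNO value of Phlda1 lay among the saline values. Etv1, a transcription factor of the same pathway, had 1276, 1286 and 1606 in Gq-Saline and 1509, 1806 and 2080 in Gq-CNO, a log2 difference of 0.37 ± 0.20 (SE). Spred1, an inhibitor related to Sprouty, stood at -0.07 ± 0.15 (SE).

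Growth factor receptors and their ligands were measured in 22 genes, of which 0 were called, 12 were positive and 10 negative. Ntrk2, the receptor of brain-derived neurotrophic factor, was the most abundant of them per length, and its log2 difference was 0.03 ± 0.10 (SE). Fgf2, a fibroblast growth factor, was lower without overlap at 189, 51.0 and 105 in Gq-Saline against 30.8, 26.9 and 44.8 in Gq-CNO, but did not pass the adjusted test (log2 difference -1.56 ± 0.72 SE). Fgfr2, a receptor of that family, had 1436, 1434 and 851 against 1691, 1978 and 1269, and these overlap. Of the 22 genes, Fgf2 was the only 1 without overlap, where 4.89% of all genes tested were higher and 5.0% lower without overlap. Among 21 core genes of the Ras and ERK cascade, 13 differences were positive, 8 negative and 0 called, with a median of 0.11. The adaptor gene Gab1 had the highest of these at 0.64 ± 0.26 (SE), and the kinase gene Map2k1, at 491, 378 and 458 against 733, 575 and 577, did not overlap between groups.

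**Figure D2:**
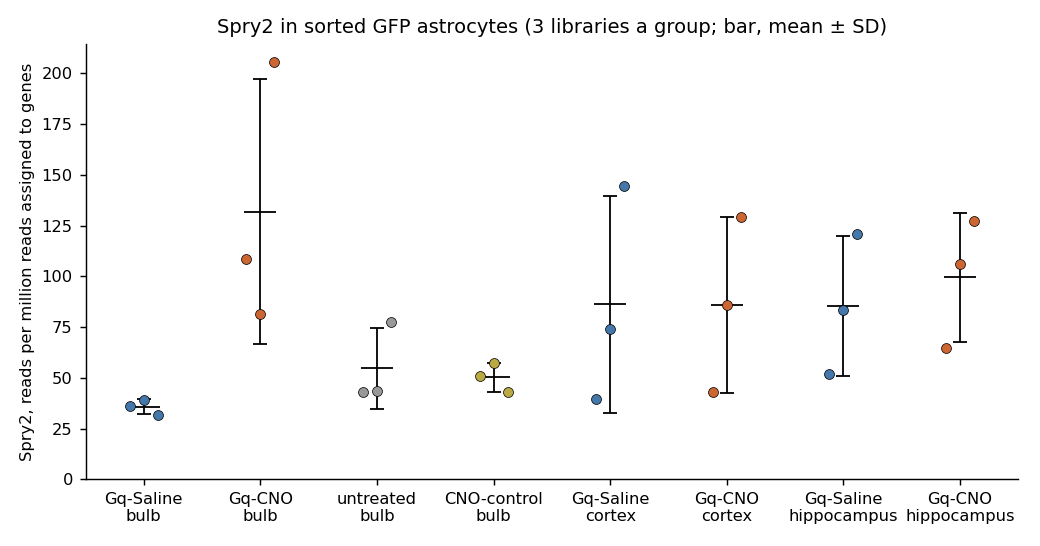
Points are the RPM of Spry2, its reads scaled to the total of each library, in each library of sorted GFP astrocytes, with the mean and SD of each group of 3. In the bulb the Gq-CNO libraries lie between 81.3 and 206 and the Gq-Saline libraries between 31.8 and 39.2, while the Gq-Saline and Gq-CNO points of cortex and of hippocampus overlap.

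Spry2 was then set beside the other groups in which CNO was compared with a control. In cortical GFP astrocytes its normalised read counts were 156, 303 and 641 with Gq-Saline and 180, 333 and 605 with Gq-CNO. In hippocampal GFP astrocytes they were 509, 810 and 1378 against 608, 1038 and 1499. In both regions the 2 groups overlapped. The last value of each of these 4 groups comes from a column numbered 4 that carries its group's name but matches no sample title by number. In the cortex such a Gq-CNO column held 325129 reads in all, and such a Gq-Saline column had 43.8 RPM of the astrocyte gene Sox9 against 364 and 378 in the other libraries of its group. The Gq-CNO effect on Spry2 in the bulb exceeded that in the cortex by 1.69 ± 0.76 (log2, SE; limma adjusted p = 0.991) and that in the hippocampus by 1.50 ± 0.76 (SE) (limma adjusted p = 1), both over 18 libraries, so neither difference between regions passed. That fit treated the libraries as independent and did not match their numbers across regions. The first Gq-Saline library held Xist reads in each region, 977 in bulb, 34 in cortex and 145 in hippocampus. The Gq-Saline columns numbered 4 held 77 in cortex and 144 in hippocampus. Whether libraries of separate regions share animals is not stated and was not tested. In the mCh sort of the bulb Spry2 had 32.0, 22.2 and 56.9 with Gq-Saline and 24.3, 69.3 and 92.1 with Gq-CNO, which overlap. In the mCh sort of the cortex it had 3.66, 17.7 and 30.1 against 174, 129 and 10.5, the last from 1 read, and in that of the hippocampus 27.5, 41.1 and 24.0 against 29.9, 60.3 and 113. The Gq-CNO mean was the higher in all 3 mCh sorts, with overlap in each. The difference in the bulb mCh sort was 0.64 ± 0.73 (SE; limma adjusted p = 0.943), and those of the other mCh sorts were not tested. Each table was normalised on its own, so normalised read counts given here compare groups within 1 table only. Levels of separate tables are to be compared as RPM or as shares of reads. Mean Spry2 RPM with Gq-Saline was 35.8 in bulb, 86.2 in cortical and 85.4 in hippocampal GFP astrocytes. With Gq-CNO it was 132, 85.9 and 99.5.

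Astrocytes of bulbs labelled CNO-control and untreated, from mice of the same genotype, allow the ligand to be compared without the Gq label. Spry2 had normalised read counts of 202, 185 and 335 in the untreated libraries and 195, 207 and 156 in the CNO-control libraries. The mean RPM was 54.7 in untreated and 50.4 in CNO-control libraries, beside 35.8 in Gq-Saline and 132 in Gq-CNO. Between CNO-control and untreated the log2 difference was -0.33. The Gq-CNO effect was larger than this CNO-control effect by 2.11 ± 0.44 (log2, SE; limma adjusted p = 0.00376), and the call ended under 1 alternative tried, limma without a trend (adjusted p = 0.0732), with adjusted p values from 4.16e-05 over the alternatives. The same 6 libraries that called Spry2 enter this difference, so it is not independent of the call. CNO-control libraries also stood apart from untreated ones in other ways. They held 6619479, 8577907 and 7151085 reads, against 2371002, 1724893 and 2964862 in the untreated libraries. Rn45s took 8.90% to 11.5% of CNO-control reads and 15.7% to 23.0% of untreated reads. All these values follow the treatment label in these CNO-control libraries. The nuclear RNA Malat1 took 2.37% to 4.10% of their reads against 0.254% to 0.428% of untreated reads and 0.106% to 0.214% in the 6 Gq libraries, they had Xist and no Ddx3y in all 3 libraries while 1 untreated library had Ddx3y, and 1332 of 10940 genes (12.2%) were called between them. The part of these differences in the result was not tested.

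The same 3 differences of effects were taken across all genes. Between bulb and cortex 0 of 12921 genes were called by limma, with 326 at an unadjusted p under 0.05 (2.52%), and edgeR called 0. Between bulb and hippocampus 0 genes were called, with 187 at an unadjusted p under 0.05 (1.45%), and edgeR called 0. With any 1 of the 18 libraries left out, limma still called 0 in both, while the genes at an unadjusted p under 0.05 between bulb and cortex numbered 856 without the first and 935 without the second cortical Gq-Saline library, and 242 without the one numbered 4. Against CNO-control, 667 of 12554 genes were called (5.31%), 441 with a higher and 226 with a lower Gq-CNO effect, where the median difference of all genes was -0.11 in limma and 0.04 in edgeR. That count was 433 without the second and 396 without the third CNO-control library. Fos, the immediate early gene, shows where such calls can arise. It differed by -0.00 between Gq-CNO and Gq-Saline and by 3.83 between CNO-control and untreated, so that its difference of effects was -3.84 (adjusted p = 4.97e-04).

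Slc22a3 was close to the limit of detection in these astrocytes. The gene lies at chr17:12418960-12507704 on the minus strand (mm10, GENCODE release M21). It had 0 reads in all 3 Gq-Saline libraries and 104, 0 and 4 reads in the Gq-CNO libraries. A count of 0 allows up to 0.271, 0.272 and 0.972 RPM in the Gq-Saline libraries, counting 3 reads as the limit and counting error only. The Gq-CNO libraries stood at 6.95, 0 and 0.945 RPM, so the first library alone stood above all of those limits. The difference did not pass an exact two-sided permutation test (p = 0.4, where 3 against 3 libraries cannot go below 0.1), and without the first Gq-CNO library the mean normalised read count was 3.74 in place of 21.6. In the CNO-control libraries the gene had 7, 0 and 0 reads, and in the untreated libraries 0.

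**Figure D3:**
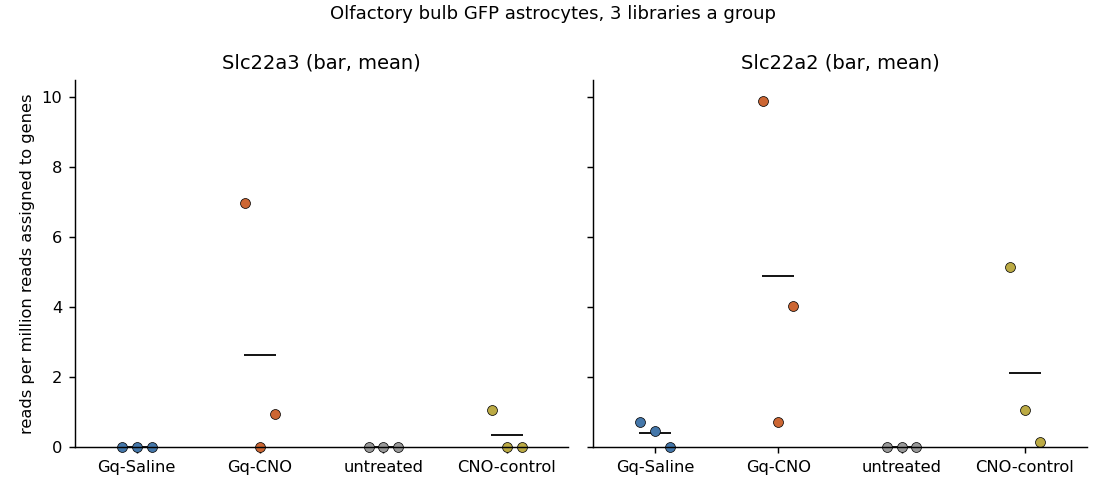
Points are RPM values for Slc22a3 and Slc22a2 in each of 12 libraries of olfactory bulb GFP astrocytes; bars are means of 3. The first Gq-CNO library is the highest for both genes, at 6.95 and 9.90, and the second Gq-CNO library lies at 0 and 0.703.

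The promoter of Slc22a3 is shown for its match to the SOX core, the letters bound by Sox9 and other SOX factors, marked in capitals. It is the RefSeq window of the same kind (GRCm38.p6, minus strand) at chr17:12507655-12507954.
Slc22a3 promoter: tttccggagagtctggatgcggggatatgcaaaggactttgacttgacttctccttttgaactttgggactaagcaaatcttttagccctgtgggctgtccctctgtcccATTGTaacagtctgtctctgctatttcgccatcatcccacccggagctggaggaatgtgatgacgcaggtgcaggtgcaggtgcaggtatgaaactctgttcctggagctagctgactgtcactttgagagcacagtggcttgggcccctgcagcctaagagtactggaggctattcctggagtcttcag
The capitals are the SOX core read on the other strand, 1 match in 300 bases, and such a match is present in 31.6% of mouse promoters of this length. No AP-1, cAMP response or serum response letters were found in it. Sox9 itself, an astrocyte transcription factor, had 2060, 2528 and 1766 in Gq-Saline and 2626, 2598 and 1960 in Gq-CNO, an overlapping set with a log2 difference of 0.18 ± 0.18 (SE).

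Slc22a2, the neighbouring gene and another organic cation transporter, had 8, 5 and 0 reads with saline and 148, 9 and 17 in Gq-CNO. Its normalised values, 5.59, 3.59 and 0 against 81.5, 5.77 and 31.8, did not overlap and gave the smallest exact p this design allows (p = 0.1, two-sided permutation test). As RPM the second Gq-CNO library fell within the saline range and the exact permutation p was 0.2. CNO-control astrocytes held 34, 9 and 1 reads of Slc22a2 and untreated astrocytes 0. Slc29a4, a monoamine transporter of another family, had 1 read in all.

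Other genes of monoamine handling showed no call. Maoa and Maob, which encode the mitochondrial enzymes that break down serotonin and dopamine, had log2 differences of -0.14 ± 0.27 (SE) and -0.14 ± 0.29 (SE). Tgm2, a transglutaminase that can join serotonin to proteins, had 78.2, 44.5 and 52.7 in Gq-Saline and 54.0, 98.7 and 11.2 in Gq-CNO, and the groups overlapped. Sult1a1, a sulfotransferase acting on phenols and catechols, did not overlap, at 162, 217 and 247 against 354, 452 and 303 (log2 difference 0.82 ± 0.36 SE). Th, tyrosine hydroxylase of dopamine neurons, went the other way without overlap, at 125, 71.8 and 47.1 against 30.8, 25.0 and 33.6. Of 23 receptors for monoamines, 4 were expressed enough to be tested, and all 4 differences were negative, with 0 called and a median of -0.74. The alpha-2 adrenergic receptor gene Adra2a was the lowest of these, at 105, 189 and 144 in Gq-Saline and 34.1, 87.8 and 41.1 in Gq-CNO (-1.49 ± 0.61 SE).

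After Spry2, the genes with the smallest p values were described by a fixed rule, 12 higher and 12 lower, among genes whose groups did not overlap and whose higher mean reached 146, the median level of the genes tested. All of them except Spry2 had an adjusted p of 0.996 in limma, and the non-overlap was part of how they were chosen. They are therefore given as the edge of the distribution and not as calls.

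On the higher side Pex3, a membrane protein of peroxisome assembly, had 214, 190 and 208 in Gq-Saline and 3799, 395 and 422 in Gq-CNO. Its log2 difference of 2.07 ± 0.51 (SE) leaned on the first Gq-CNO library. Ogn, osteoglycin, a proteoglycan of the meninges and connective tissue, had 169, 312 and 155 against 406, 526 and 732. Zfp36l2, which binds and destabilises messenger RNAs, had 618, 544 and 710 against 1145, 1288 and 1059, with narrow groups and a log2 difference of 0.90 ± 0.23 (SE). Prkaca, the catalytic subunit of protein kinase A, had 263, 229 and 333 against 536, 605 and 594 (1.09 ± 0.30 SE). These last 2 genes were separated by more than the range of either group. Aptx, a DNA repair enzyme, stood at 1.69 ± 0.44 (SE), Ttc4, a co-chaperone, at 1.92 ± 0.49, Coro2b, a coronin of the actin skeleton, at 1.50 ± 0.40, and Smoc1, a secreted calcium-binding matrix protein, at 1.67 ± 0.45. The remaining higher genes were Esf1 (1.22), a nucleolar protein, Tshz1 (0.95), a transcription factor of olfactory bulb interneurons, and Cbr4 (1.94), a carbonyl reductase.

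On the lower side Hdac9, a class II histone deacetylase, had 402, 503 and 849 in Gq-Saline and 232, 271 and 204 in Gq-CNO (-1.25 ± 0.33 SE). Kctd12, an auxiliary subunit of GABA-B receptors, was the most abundant of the lower genes per length, and its log2 difference was -0.49 ± 0.15 (SE). Igfbp5, which binds insulin-like growth factors, had 5429, 5800 and 4390 against 3355, 3883 and 3901 (-0.48 ± 0.15 SE). In both of the abundant genes the groups were close to each other at the nearest values. Gsap (-1.30), linked to amyloid processing, Drg2 (-1.75), a GTP-binding protein, Mxi1 (-0.84), an antagonist of Myc, and Med13 (-0.58), a Mediator subunit, were also on this side. Utp20 (-1.32) acts in ribosome assembly, Daam1 (-1.17) is a formin of planar polarity signalling, Ralgps2 (-0.91) activates Ral GTPases and Gtf3c6 (-1.06) belongs to the RNA polymerase III machinery. Hist1h4k, a histone H4 gene, had the largest difference of the lower set, -2.68 ± 0.79 (SE), but it is 1 of several near-identical histone H4 copies, and reads may be divided among them.

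**Figure D4:**
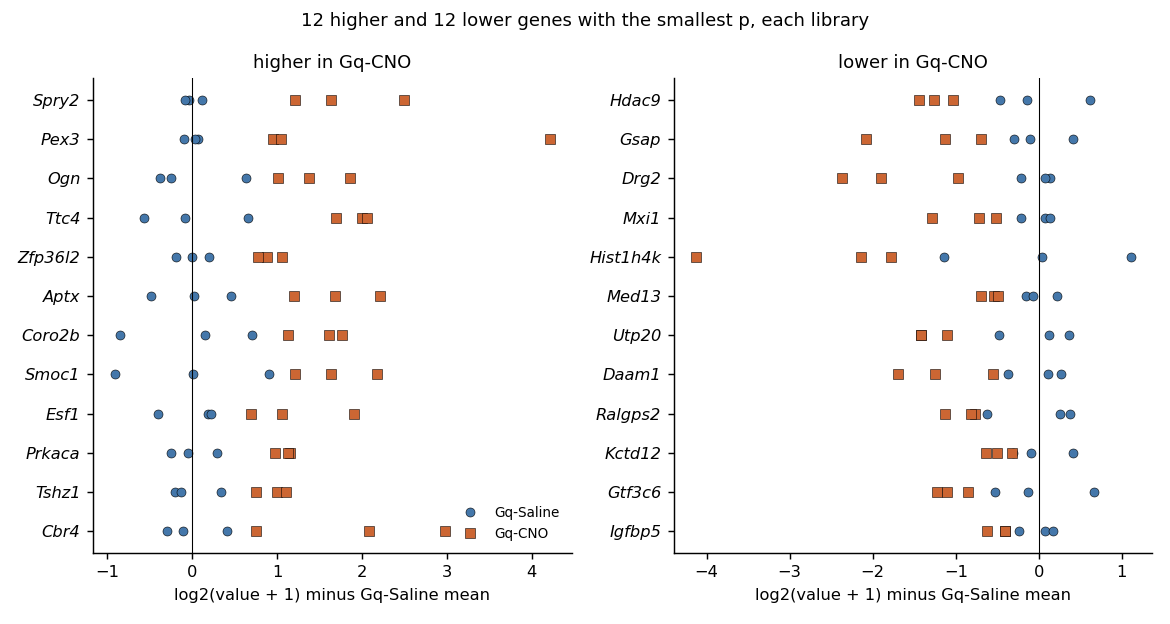
Each row is a gene; circles are Gq-Saline and squares Gq-CNO libraries, drawn as log2(value + 1) minus the mean of the 3 Gq-Saline libraries. Spry2 and Zfp36l2 have tight saline values, the first Gq-CNO library of Pex3 stands alone at the right, and no row overlaps because that was a condition of the choice.

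Transcripts of Gq, phospholipase C and calcium handling were tested in 24 genes. Their levels do not measure Gq signalling itself. Of these 0 were called, 12 were positive and 12 negative, with a median of 0.01. Gnaq, which encodes the Gq alpha subunit, had 3310, 2950 and 3793 in Gq-Saline and 2623, 2876 and 2128 in Gq-CNO, without overlap, at -0.40 ± 0.17 (SE). Its close relative Gna11 was at 0.50 ± 0.28 (SE). Of the 24 genes, Gnaq was the only 1 without overlap, where 4.89% of all genes tested were higher and 5.0% lower without overlap. Immediate early genes, which neurons and glia induce within minutes of stimulation, gave 13 tested members, 0 called, 7 positive and 6 negative. Fos had 179, 58.9 and 83.2 in Gq-Saline and 61.7, 106 and 133 in Gq-CNO, so the groups overlapped throughout. Arc and Npas4 had log2 differences of -1.11 ± 0.89 (SE) and 0.54 ± 1.45 (SE), and that of Npas4 was -0.62 in edgeR. Jun was higher without overlap, at 286, 192 and 266 against 371, 360 and 525 (0.75 ± 0.34 SE), whereas Fosl2, another AP-1 subunit, was at -2.49 ± 1.21 (SE).

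Transmitter uptake genes were abundant and close to each other between groups. Slc1a2, the main glutamate transporter, ranked 5 per length among the genes ranked and had a log2 difference of -0.02 ± 0.10 (SE). Glul, glutamine synthetase, ranked 6 with 0.03 ± 0.10 (SE). Of 12 genes of glutamate uptake and glutamine cycling 0 were called, with 9 positive and 3 negative. In 11 genes of GABA synthesis, transport and GABA-B receptors, 0 were called. The GABA transporter Slc6a11 had a median RPKM of 842 and a log2 difference of 0.12 ± 0.13 (SE), Gad1 was at 0.20 ± 0.31, and the receptor subunit Gabbr2 was at -0.59 ± 0.26 (SE). Of 15 potassium, water and gap junction genes 11 were negative and 4 positive with 0 called. The potassium channel gene Kcnk1 did not overlap, at 1106, 1253 and 1875 in Gq-Saline and 906, 1055 and 994 in Gq-CNO (-0.48 ± 0.22 SE), while Kcnj10, the main inward rectifier of astrocytes, was at -0.11 ± 0.13.

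Markers that define astrocytes were abundant in every library. All 16 astrocyte markers were tested, 0 were called, 11 were positive and 5 negative, and their differences ran from -0.05 for Gjb6 to 0.40 for Aldh1l1. Their summed level lay between 60248 and 69325 RPM in the 6 libraries. Aldh1l1, whose promoter drives the reporter, had 1500, 1599 and 1337 in Gq-Saline and 2236, 2138 and 1526 in Gq-CNO. Of 26 transcription factors of astrocytes, 19 were positive and 7 negative, 0 were called, and 4 had an unadjusted p under 0.05, all of them higher, against 2.33% of all genes tested that were higher at that p. These were Id2 (0.44 ± 0.19 SE), Pax6 (0.71 ± 0.32), Stat3 (0.52 ± 0.25) and Gli2 (0.88 ± 0.43). Id2, an inhibitor of basic helix-loop-helix factors that BMP signals induce, had 1155, 1378 and 1650 against 1951, 1798 and 1883. The 17 BMP and Id genes as a list were split 9 to 8, and 13 Notch genes 5 to 8, with 0 called in either. Notch2 was the Notch receptor without overlap, at 1028, 724 and 965 against 590, 622 and 669.

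Genes that astrocytes express after injury did not pass either. Of 15 tested reactive genes 10 were positive, 5 negative and 0 called. Their median was 0.25 in limma and -0.03 in edgeR, so it had no fixed sign. Gfap, the filament gene of reactive astrocytes, had 5391, 4946 and 5030 in Gq-Saline and 4802, 5542 and 5228 in Gq-CNO, and Vim, vimentin, was at -0.17 ± 0.19 (SE). Among 14 interferon response genes, 10 were positive and 4 negative with 0 called, and Ifit3, an antiviral gene, had 234, 249 and 216 against 397, 482 and 299 (0.72 ± 0.34 SE).

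Metabolic lists gave no call either. Of 24 genes of glycolysis, lactate and glycogen 14 were positive, 10 negative and 0 called. Aldoc, the astrocyte aldolase, was at 0.13 ± 0.10 (SE), and Hk2, an inducible hexokinase, had 14.0, 2.15 and 5.55 in Gq-Saline and 39.7, 28.9 and 67.3 in Gq-CNO. Hk2 was low in every library and its groups did not overlap. Of 22 genes of cholesterol synthesis and lipoproteins 0 were called. Apoe, the apolipoprotein that carries lipids out of astrocytes, was at 0.05 ± 0.11 (SE), and Sqle, squalene epoxidase, was lower without overlap at 678, 793 and 979 against 336, 670 and 419 (-0.83 ± 0.28 SE). Of 22 matrix and synapse-regulating genes 11 were positive and 11 negative with 0 called. Sparcl1, a secreted protein that promotes synapse formation, had the second highest level per length of the genes ranked. Its difference was 0.07 ± 0.09 (SE). The glypican gene Gpc6, whose protein promotes excitatory synapses, had 564, 466 and 710 against 422, 310 and 364.

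In the histone deacetylase list, 10 genes were tested, 5 positive and 5 negative, and Hdac9 and Hdac4, of class II, were lower without overlap, where 5.0% of all genes tested were. Hdac4 had 317, 327 and 291 in Gq-Saline and 202, 152 and 192 in Gq-CNO (-0.78 ± 0.37 SE). The other class II members had differences of 0.35 (Hdac5), 0.02 (Hdac6) and 0.59 (Hdac7), and the class I genes Hdac1 and Hdac2 stood at -0.40 ± 0.38 (SE) and 0.21 ± 0.28 (SE). Of 15 peroxisome assembly genes 9 were positive and 6 negative, and Pex2, at -0.38 ± 0.38 (SE), overlapped between groups. In the sialic acid pathway, 19 genes were tested and 0 called. Slc35a1, which carries activated sialic acid into the Golgi, had 258, 96.9 and 55.5 in Gq-Saline against 6.61, 14.1 and 22.4 in Gq-CNO (-3.02 ± 0.87 SE), whereas the sialyltransferases St3gal1 (1.74 ± 0.73 SE) and St6gal1 (0.92 ± 0.44 SE) had positive differences.

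Clock genes (16 tested, 10 positive, 0 called) and glucocorticoid-responsive genes (13 tested, 8 positive, 0 called) share Per1, a clock gene that glucocorticoids induce. It was lower without overlap, at 156, 109 and 305 in Gq-Saline and 86.5, 91.7 and 95.3 in Gq-CNO. Bhlhe41, a repressor of the clock, was at 0.47 ± 0.21 (SE). Cytosolic ribosomal protein genes gave 53 positive and 24 negative differences of 77, median 0.07, and nuclear-encoded subunits of oxidative phosphorylation 53 positive and 32 negative of 85, median 0.08, with 0 called in either list. The highest difference of the ribosomal list was 0.49 ± 0.23 (SE), for Rpl29.

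**Figure D5:**
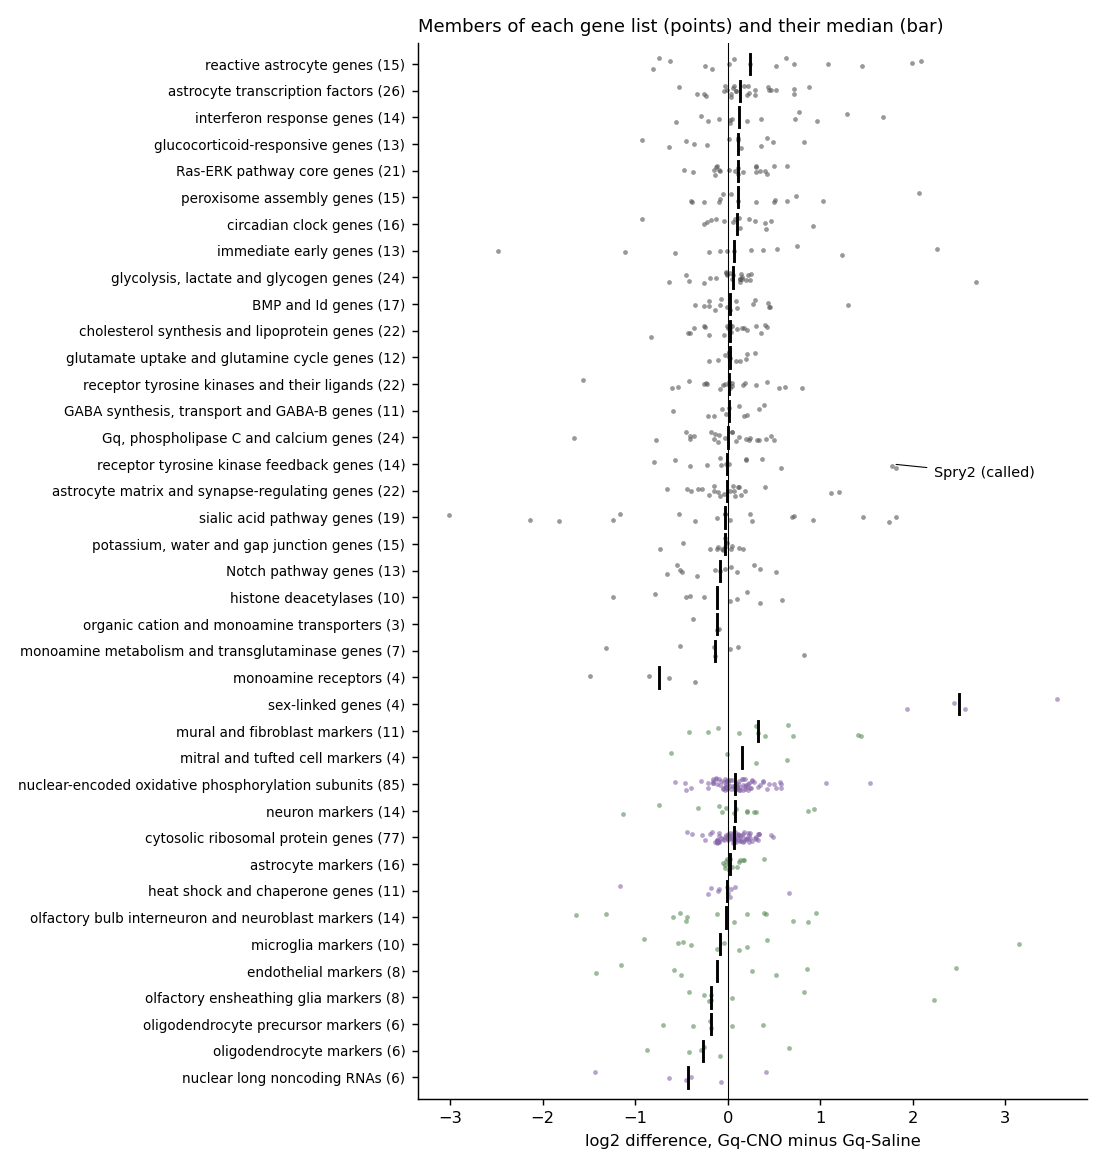
Points are the log2 differences of the tested members of each list, with the number tested in brackets; thick bars are medians. Lists of biology are grey, markers of cell types green and quality lists purple. Nearly all medians lie close to 0, Spry2 is the called member, and the 4 sex-linked genes lie to the right at a median of 2.51.

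Markers of other cell types were detected in both groups, at summed levels below that of the astrocyte markers. Neuron markers summed to between 877 and 1287 RPM over the 6 libraries, microglia markers to between 92.1 and 188, and endothelial markers to between 30.8 and 131. The 4 globin genes of red blood cells were at 0 in all 6 libraries. Markers of olfactory ensheathing glia, which wrap the olfactory nerve, summed to between 2785 and 4006 RPM, with 0 of 8 called. Most of that sum came from Fabp7, rank 8 per length of the genes ranked (median RPKM 1937, exon length 1250 bases). The sum therefore need not measure such glia. Border macrophage markers summed to 17.9, 18.8 and 11.7 RPM in Gq-Saline and 2.67, 5.08 and 4.02 in Gq-CNO, without overlap, but 1 of the 6 was abundant enough to be tested, and it was not called. Oligodendrocyte markers summed to 1359, 1115 and 1200 in Gq-Saline and 749, 1151 and 1083 in Gq-CNO, and of 6 tested members 5 were negative and 0 called. Mobp, a myelin gene, was lower without overlap, at 340, 357 and 305 against 136, 212 and 206. Mural and fibroblast markers, of which 8 of 11 were positive and 0 called, summed to 1926, 2755 and 1132 RPM with saline and 2490, 2386 and 3787 in Gq-CNO. Most of each sum was Ptgds alone, at 1636, 2268 and 863 RPM with saline and 2055, 2038 and 3276 in Gq-CNO. The sums therefore follow 1 gene more than the list. Ptgds, the prostaglandin D2 synthase of meningeal cells, was rank 11 per length of the genes ranked. It had 12675, 17962 and 7387 against 16928, 16724 and 25912, which overlap. Ptgds was called by limma only without the second Gq-Saline library (adjusted p = 0.0369). Ogn belongs to the same list, and the part of such cells in its difference was not tested. In sorted cells, fewer cells of a type and less RNA per cell cannot be told apart.

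Bulb interneuron and neuroblast markers, 14 tested and 0 called, were split 7 to 7. Tshz1 and Pbx3, 2 transcription factors of these neurons, were higher without overlap, and Calb2 and Th, which mark 2 of their subtypes, were lower without overlap, against 4.89% and 5.0% of all genes tested. Other members overlapped, among them the neuroblast genes Dcx (0.39 ± 0.37 SE), Stmn4 (0.87 ± 0.68) and Sox11 (-0.45 ± 0.34). Calb2, calretinin, had 145, 109 and 111 in Gq-Saline and 17.1, 34.0 and 93.4 in Gq-CNO (-1.64 ± 0.70 SE), and Pbx3 had 536, 292 and 383 against 671, 627 and 615. The sex-linked genes followed the first Gq-Saline library. Ddx3y had 0, 752 and 605 in Gq-Saline and 906, 839 and 985 in Gq-CNO, and its difference was 3.56 in limma and 1.02 in edgeR, with 0 called. Malat1 and other nuclear RNAs were lower in 5 of 6 tested genes, with Malat1 at 16582, 14969 and 12870 against 8727, 11579 and 13964 and 0 called.

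The genes whose levels followed Spry2 most closely over the 6 libraries were Sdha, a subunit of succinate dehydrogenase (Pearson's r = 0.997 on log2 values), Abhd17b (0.993), Prpsap1 (0.989), Mcur1 (0.985) and Supt16 (0.971), out of 6154 genes compared, of which 63 (1.02%) had an r above 0.9. The 6 points share their libraries and scaling, and these values are a description. Sdha had 3540, 3553 and 3433 in Gq-Saline and 4182, 4047 and 4656 in Gq-CNO. Its groups did not overlap, its log2 difference was 0.29 ± 0.15 (SE), and it was not called.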

How the data were processed

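The authors deposited normalised signal values, gene read counts divided by 1 size factor for each library. Per the submitters' processing notes, the tools were FastQC 0.11.7, MultiQC 1.11, STAR 2.5.0a with mm10 and DESeq2 1.30.1. The strand setting of counting is not given in the sources used here. Read counts were recovered by dividing by the smallest step, and 100% of values came out whole within 0.05. In R 4.3.3, log2(value + 1) of the 2 groups was compared by limma 3.58.1, trend on and no block, after a filter of at least 10 in at least 3 libraries. A pseudocount of 1 understates changes of low genes. edgeR 4.0.16 and DESeq2 1.42.0 on recovered reads were alternatives. Differences of effects used joint fits of 18 or 12 libraries, without matching libraries across regions. Genes too low for limma had an exact permutation test.

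Members, lists, naming rule and tests were chosen with earlier results of these data known. The rule named 16 genes always, 12 higher and 12 lower genes by p, and up to 4 members of each list by p plus the 2 most abundant. Genes with a date for a name (27) were kept. Scripts were tested on simulated data. Positions and exon lengths come from GENCODE M21 (95.4% of symbols matched once) and promoters from RefSeq. Same-numbered bulb GFP libraries did not deviate together, which cannot exclude that they are paired.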

Additional observations from a re-analysis of the deposited data

Results flagged for a closer look

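The Gq-CNO effect in bulb astrocytes differed from the effect of CNO-control against untreated bulb astrocytes in 667 of 12554 genes (limma adjusted p under 0.05), among them the following genes named above. All values are log2 differences of the 2 effects. Genes with a higher Gq-CNO effect were Spry2 at 2.11, Aptx at 2.25, Coro2b at 1.79, Rpl29 at 2.01, Hk2 at 4.61 and Ptgds at 1.76. Astrocyte genes on this side were Aldh1l1 at 1.12, Aldoc at 0.71, Slc1a2 at 0.79, Glul at 0.77, Apoe at 1.54 and Gfap at 1.40. In Slc1a2, Glul, Apoe and Gfap the effects in the Gq pair were -0.02, 0.03, 0.05 and 0.02, while those in the CNO-control pair were -0.81, -0.74, -1.50 and -1.38. Genes with a lower Gq-CNO effect were Fos at -3.84, Gsap at -1.66, Utp20 at -2.63, Daam1 at -1.46, Ralgps2 at -1.42, Gpc6 at -1.31, Notch2 at -1.54, Malat1 at -3.43 and Xist at -8.28. Hk2 was too low to be tested in the CNO-control pair alone, and Xist in the Gq pair alone. The value of Hk2 had an SE of 1.36 (limma adjusted p = 0.0464). The 2 pairs of groups also differ in their table, in read depth, in the share of Rn45s and in the libraries that hold Xist. These cannot be told apart from treatment.

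Slc22a3 also had reads in sorts outside the comparison. In the mCh sort of the olfactory bulb the 3 Gq-CNO libraries held 8, 2 and 21 reads, 31 in all, and the 3 Gq-Saline libraries held 0. The Gq-CNO libraries stood at 1.50, 0.385 and 5.72 RPM. With 3 reads as the limit, a count of 0 allows up to 1.71, 0.510 and 1.57 RPM in the Gq-Saline libraries. The third Gq-CNO library alone stood above all of those limits. In the mCh sort of the hippocampus the Gq-CNO libraries held 0, 0 and 32 reads and the Gq-Saline libraries 0, and in hippocampal GFP astrocytes the Gq-CNO libraries held 0, 14 and 0 and the Gq-Saline libraries 0. In both sorts of the cortex the gene was at 0 in all libraries.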

How the results depend on the processing

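Spry2 kept a positive difference in all 20 alternatives and its call in 6. The number of genes called between Gq-CNO and Gq-Saline was 1 with DESeq2, a filter of 50, a pseudocount of 5 or Rn45s left out. It was 0 with edgeR under TMM or RLE scaling, no filter, a pseudocount of 0.1, quantile normalisation, no trend or all 3 regions in 1 fit, and between 0 and 2 when 1 library was left out. Without the third library of each group, the shallowest, an alternative chosen after seeing the data, 2 genes were called, Pex3 (2.60) and Nbeal2 (-3.75). The other genes named by smallest p gave 460 alternative values with 0 changes of sign, which their choice by groups that do not overlap largely fixes. Of 780 alternative list medians, 105 changed sign. Between bulb and cortex, DESeq2 called 13 genes and limma with no filter 1, and between bulb and hippocampus DESeq2 called 9. Against CNO-control the count was 1093 with DESeq2, 186 with no trend, and 396 to 716 with 1 library left out. The causes were not tested.

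Bulb GFP libraries with the same number did not deviate together (r = -0.04, -0.01 and 0.00). This covers 1 sort of 1 region and cannot exclude that the numbers pair libraries. The first Gq-Saline library of both sorts held Xist reads in each region, from 34 in cortical to 977 in bulb GFP astrocytes. The second Gq-Saline library held 0 in each. With the replicate block, 0 genes were called between Gq-CNO and Gq-Saline (Spry2 adjusted p = 0.0831 in limma), 0 in edgeR with the block, and 600 against CNO-control.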

Other observations

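Some genes had reads in 1 group only, and they were chosen after their values were seen. With 0 reads in all 3 Gq-Saline libraries, 16 genes had reads in all 3 Gq-CNO libraries, out of 796 with reads in any Gq-CNO library. In 2 of them, Harbi1 and B430212C06Rik, every Gq-CNO value reached 10 normalised reads. Harbi1, a gene derived from a transposase, had 52, 30 and 7 reads. Nradd, a gene related to the neurotrophin receptor, had 252, 2 and 1 reads, so the first Gq-CNO library held nearly all of them, and Trpa1, an irritant-sensing channel, had 28, 2 and 30. In the other direction 921 genes had 0 reads in Gq-CNO and reads in any Gq-Saline library. Of these, 29 had reads in all 3 Gq-Saline libraries, and in 0 of those 29 did every value reach 10. Actn2, a muscle-type actinin, led these with 15, 42 and 2 reads, and Paqr5 had 27, 9 and 9.

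Slc22a3 and Slc22a2 belong to an imprinted cluster with Igf2r and the noncoding RNA Airn, which overlaps Igf2r on the other strand. Airn had 30, 12 and 0 reads with saline and 13, 1 and 1 with CNO. Igf2r, a receptor for insulin-like growth factor 2, had normalised read counts of 228, 315 and 399 with saline and 376, 230 and 166 with CNO, which overlap. Without a stated strand setting, reads of this overlapping gene and RNA cannot be told apart.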
